A study of Mus musculus with 19 samples.

Results

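Annexins are calcium-dependent proteins that bind acidic phospholipids of membranes. The 10 annexin genes considered were Anxa1, Anxa2, Anxa3, Anxa4, Anxa5, Anxa6, Anxa7, Anxa8, Anxa11 and Anxa13, chosen by symbol. Of these, 9 were matched among the 35274 genes of the deposited tables, and Anxa13 was not analysed here. All 9 were among the 16387 genes that passed the filter on low counts. RNA was sequenced from hepatocytes of mice of genotype OPN-CreERT2;Rosa26R-mT/mG, in which a tamoxifen-inducible Cre driven by the osteopontin promoter switches the mT/mG reporter of a cell, and of the cells that arise from it, from membrane tdTomato to membrane GFP. The CTL group held native hepatocytes from healthy mice. The RED group held native tdTomato hepatocytes from mice with chronic liver injury. The GREEN group held hepatocytes from chronic injury that are labelled as DR-derived, without the abbreviation being spelled out. All 3 groups carried the Cre and the reporter, and each had 5 samples. The agent, dose and duration of the injury, the age and sex of the mice and any animals shared between samples are not stated in the labels.

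Annexins share a conserved core of repeats that takes up calcium and docks on phospholipid, and they differ in a short N-terminal tail that binds partners such as S100 proteins. They take part in vesicle traffic, in the link between membrane and actin, in the repair of torn plasma membrane and, outside the cell, in clotting, fibrinolysis and the ending of inflammation. In liver, Anxa6 is known as an abundant hepatocyte annexin, and Anxa4 as an annexin of secretory and ductal epithelium.

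The annexin genes are spread over the genome, and 3 of them (Anxa7, Anxa8 and Anxa11) lie on chromosome 14. To show the sequence beside the expression, the 250 bases before the annotated start of 4 genes are printed, from RefSeq on GRCm38.p6. Anxa1 and Anxa2 stand for genes that were scarce in CTL samples and higher in samples of the injury groups. Anxa7 and Anxa11 stand for genes with smaller changes, although Anxa11 passed as lower in RED than in CTL (log2 fold change -0.34). Capitals mark matches to motif letters searched on both strands. These were TATAAA for the TATA element, TGANTCA for the factor AP-1, CATTCC for the TEAD factors and GGGCGG for the GC element, and the marked matches do not overlap. Anxa1 lies on the minus strand (chr19:20390672-20390921), Anxa2 on the plus strand (chr9:69453433-69453682), Anxa7 on the minus strand (chr14:20479942-20480191) and Anxa11 on the plus strand (chr14:25841905-25842154).
Anxa1: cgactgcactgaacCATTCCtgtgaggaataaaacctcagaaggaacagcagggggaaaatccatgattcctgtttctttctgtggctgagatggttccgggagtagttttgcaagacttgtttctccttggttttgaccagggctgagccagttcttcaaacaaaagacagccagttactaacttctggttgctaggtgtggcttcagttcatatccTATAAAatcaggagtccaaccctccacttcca
Anxa2: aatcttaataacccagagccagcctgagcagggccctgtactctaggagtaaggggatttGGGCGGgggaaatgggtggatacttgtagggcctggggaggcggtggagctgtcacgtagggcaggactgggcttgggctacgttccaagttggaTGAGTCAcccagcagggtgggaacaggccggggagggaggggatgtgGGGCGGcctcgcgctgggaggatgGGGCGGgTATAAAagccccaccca
Anxa7: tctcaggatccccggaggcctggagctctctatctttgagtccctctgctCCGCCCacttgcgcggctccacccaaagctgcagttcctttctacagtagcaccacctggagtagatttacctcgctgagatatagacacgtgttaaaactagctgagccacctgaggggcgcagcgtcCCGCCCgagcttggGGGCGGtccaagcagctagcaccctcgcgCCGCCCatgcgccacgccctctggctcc
Anxa11: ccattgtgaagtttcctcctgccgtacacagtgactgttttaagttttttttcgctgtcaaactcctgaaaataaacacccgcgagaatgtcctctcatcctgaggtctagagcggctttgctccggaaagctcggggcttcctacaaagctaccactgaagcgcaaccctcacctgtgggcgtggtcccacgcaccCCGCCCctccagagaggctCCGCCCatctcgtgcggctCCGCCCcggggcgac

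Windows of 7 of the 9 annexins were in the table (Anxa3 and Anxa6 had no entry), with a second start for Anxa4 and for Anxa7. TATAAA occurred in 12.4% of all 32851 windows of this length, and among the annexins in Anxa1, 32 bases before the start, and in Anxa2, 17 bases before it. The Anxa2 window also held TGAGTCA, a match to the AP-1 letters found in 6.75% of all windows, 95 bases before the start. CATTCC, in 12.6% of windows, occurred among the annexins in Anxa1. GGGCGG, in 32.7% of windows, occurred 3 times in Anxa2 and Anxa11 and 4 times in the printed Anxa7 window, and was not found in the windows of Anxa1, Anxa4, Anxa5 and Anxa8. The letters CCAAT, in 33.8% of windows, were found in none of the 9 annexin windows. The Anxa1 window was 46% G and C with 2 CpG dinucleotides, Anxa2 62.4% with 9, Anxa7 62.0% with 16 and Anxa11 58.0% with 17, beside medians of 52.4% and 6 over all windows. For Anxa1, Anxa2 and Anxa7 the outer end of the gene in GENCODE M21 lies within or before the printed window, so the start differs between annotations. A match is a description of letters, not a binding site.

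Libraries came from 2 experiments, 10 with a poly(A) kit in experiment 1 and 9 with a ribosomal RNA depletion kit in experiment 2, and 4 samples had a library in each. Total estimated counts were 22442607 to 34216824 per library in experiment 1 and 38061859 to 44177627 in experiment 2. Each sample entered the tests with 1 library, so each group had 2 of experiment 1 and 3 of experiment 2. Levels are given as CPM, which divides a count by the TMM-adjusted library total. Summed CPM of 19 mature hepatocyte markers was 138887 to 195244 in CTL, 104114 to 149335 in RED and 39725 to 96112 in GREEN, so the labelled cell type was present in every sample. The injured samples also held markers of other cells. Summed CPM of 20 endothelial markers was 80.8 to 221 in CTL, 628 to 3303 in RED and 628 to 1325 in GREEN. For 20 stellate and matrix markers it was 58.5 to 132, 428 to 2511 and 1183 to 3779.8, and for 20 Kupffer cell and macrophage markers 49.4 to 127, 158 to 1946 and 199.6 to 785. RED 5 had the highest and RED 2 the lowest sum of these 3 lists among RED samples. Summed CPM of 20 biliary markers was 170.3 to 593 in CTL, 253 to 621 in RED, and 989, 1246, 4522, 10317 and 5788 in GREEN 1 to GREEN 5, so GREEN 3, GREEN 4 and GREEN 5 stood apart from GREEN 1 and GREEN 2. GREEN 3 and GREEN 4 bear the same library code in their descriptions, and the labels count them as separate samples. Whether they came from 1 animal is not stated. If they did, GREEN would not hold 5 independent samples, as the p-values assume. Fewer cells of a type and less RNA per cell cannot be told apart in these bulk samples.

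CTL samples held RNA of mainly 5 annexins, and RED and GREEN samples held another mix. The part of other cells in this mix was not tested. On a scale of CPM per kilobase of exon, which allows genes to be compared, the order in CTL was Anxa6 (43.4 ± 7.12, SD, n = 5), Anxa5 (26.0 ± 3.15), Anxa4 (11.5 ± 2.59), Anxa7 (11.3 ± 2.31) and Anxa11 (9.51 ± 0.752). Anxa7 and Anxa11 were within 1 SD of Anxa4. Anxa2 (0.377 ± 0.201), Anxa1 (0.12 ± 0.0443), Anxa3 (0.0875 ± 0.0600) and Anxa8 (0.0227 ± 0.0233) followed far below. In RED the order began with Anxa5 (66.1 ± 37.7), Anxa6 (35.6 ± 5.42), Anxa7 (10.7 ± 1.85), Anxa4 (10.4 ± 2.70) and Anxa2 (8.78 ± 7.85), with Anxa5 and Anxa6 within the SD of Anxa5. In GREEN it began with Anxa5 (231 ± 171), Anxa4 (42.6 ± 31.4), Anxa6 (39.1 ± 5.80) and Anxa2 (21.6 ± 15.2), and Anxa4 and Anxa6 did not differ beyond their spread.

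The summed level of the 9 annexins per kilobase was 102 ± 12.9 in CTL, 145 ± 48.9 in RED and 365 ± 231 in GREEN (SD, n = 5). Anxa6 made up 42.3% ± 3.19 of that sum in CTL, 27.0% ± 10.2 in RED and 14.9% ± 9.59 in GREEN. Anxa5 made up 25.5% ± 2.48, 43.0% ± 11 and 58.3% ± 10.8. By group means Anxa5 thus took the first place of Anxa6 in the injury groups, although Anxa6 stayed first in RED 2 (39.1% against 29.9%). The CPM of Anxa6 itself did not pass edgeR's test with TMM over all 15 samples in any comparison. Anxa4 had a share of 11.2% ± 1.41 in CTL, 7.85% ± 3.29 in RED and 11% ± 1.47 in GREEN. Anxa1, Anxa2 and Anxa3 had shares of 0.115%, 0.374% and 0.0852% in CTL, and Anxa2 reached 5.28% ± 2.90 in RED and 5.57% ± 1.15 in GREEN.

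**Figure D1:**
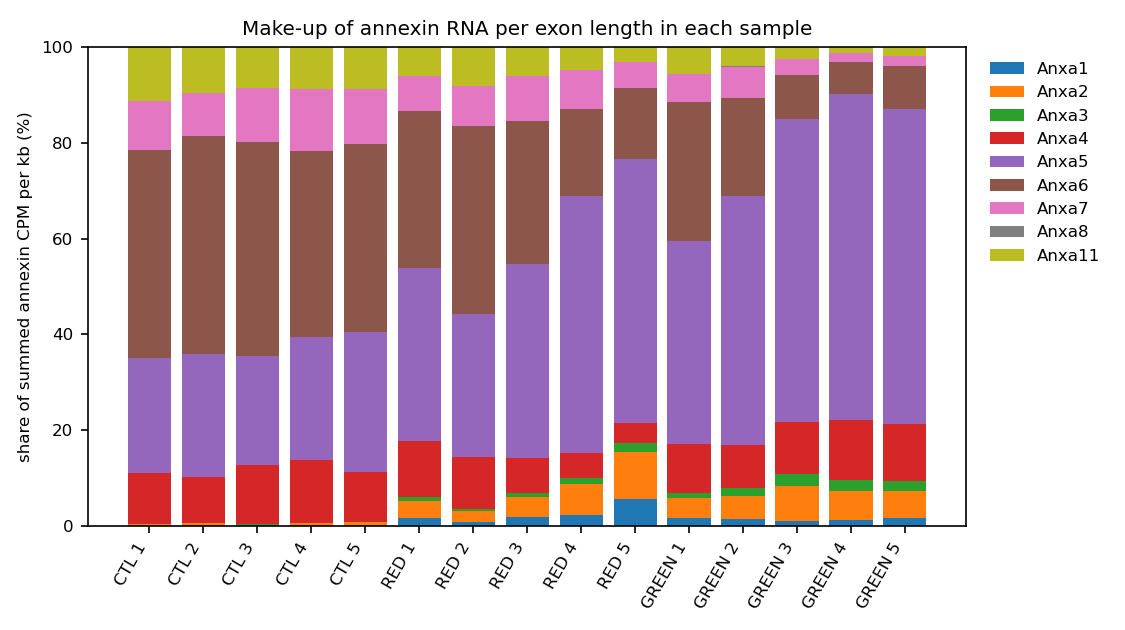
Share of each annexin in the summed annexin level per exon length (vertical axis, %) in each of the 15 samples (horizontal axis). Anxa6 is the largest block in the CTL samples (mean 42.3%) and Anxa5 in the GREEN samples (mean 58.3%), with RED in between.

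RED versus CTL set the native hepatocytes of injured liver against those of healthy mice. Of the 9 annexins, 3 were higher in RED (Anxa1, Anxa2 and Anxa3) and 1 lower (Anxa11) at an adjusted p under 0.05 in edgeR's quasi-likelihood test, and 5 did not pass. Over all genes tested 14.2% were higher and 1.99% lower, 16.2% in all. The median log2 fold change of the 9 annexins was 0.62, against 0.05 over all genes.

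Anxa1, a glucocorticoid-induced protein that acts through formyl peptide receptors in the ending of inflammation, had 0.156, 0.392, 0.354, 0.513 and 0.325 CPM in CTL 1 to CTL 5. It had 6.24, 2.39, 6.23, 9.58 and 37.0 CPM in RED 1 to RED 5. Every RED sample was above every CTL sample, and RED 5 was far above the other RED samples. Anxa1 rose by 4.87 on the log2 scale (standard error 0.55, adjusted p = 2.8e-04). Anxa1 (ENSMUSG00000024659.14) is at chromosome 19, 20373428 to 20390944, on GRCm38.

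Anxa2, which links membranes to actin and, with S100a10, binds plasminogen and its activator at the cell surface, had 0.728, 1.41, 0.590, 2.05 and 2.24 CPM in CTL 1 to CTL 5. It had 17.2, 8.64, 19.0, 37.1 and 81.8 CPM in RED 1 to RED 5. The groups did not overlap, and RED 2 was again the lowest and RED 5 the highest injured sample. The rise was 4.35 on the log2 scale (standard error 0.66, adjusted p = 6.1e-04). Anxa2 (ENSMUSG00000032231.14) is at chromosome 9, 69453620 to 69491795.

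Anxa3 had 0.182, 0.496, 0.472, 0 and 0.443 CPM in CTL 1 to CTL 5 and 3.82, 1.43, 3.38, 7.12 and 15.8 CPM in RED 1 to RED 5. Its groups did not overlap either, and its log2 fold change was 3.99 (standard error 0.76, adjusted p = 0.0021). With experiment 2 alone its adjusted p was 0.054. Anxa3 (ENSMUSG00000029484.12) is at chromosome 5, 96793339 to 96845966.

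These 3 genes moved with the markers of several other cell types: 20 of 20 endothelial, 19 of 20 stellate and matrix and 20 of 20 macrophage markers, and 7 of 9 tested neutrophil markers, were higher in RED. Of 8 tested lymphocyte markers 1 was higher, 1 was lower and 6 did not pass. RED 2 was the lowest and RED 5 the highest RED sample for the endothelial, stellate and matrix and macrophage sums. The same held for Anxa1, Anxa2 and Anxa3. For the neutrophil sum RED 3 was lowest (7.23 CPM, beside 7.81 in RED 2) and RED 5 highest. The part of such cells in the result was not tested. Without RED 5 the log2 fold changes were 4.32 for Anxa1, 3.95 for Anxa2 and 3.61 for Anxa3, all past the threshold. In CTL the endothelial, stellate and matrix, macrophage and neutrophil lists were low but above 0. Of their genes only Ly6g, of the neutrophil list, was at 0 in every CTL library. Experiment-adjusted log2 CPM of Anxa1 and Anxa2 had a Pearson r of 0.98 over the 15 samples, Anxa1 and Anxa3 of 0.92, and Anxa2 and Anxa3 of 0.93. These values share the libraries and the group differences.

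Anxa5, which binds phosphatidylserine and lies in lattices on membranes, had 36.4, 47.4, 48.5, 49.4 and 49.5 CPM in CTL 1 to CTL 5 and 82.3, 52.5, 86.3, 145 and 221 CPM in RED 1 to RED 5. Every RED sample was above every CTL sample, and the log2 fold change of 1.27 (standard error 0.42, adjusted p = 0.058) missed the threshold. Among the 9 annexins, Anxa1, Anxa2, Anxa3 and Anxa5 had RED samples all above CTL, a pattern that 10.6% of all genes tested showed. The adjusted p of Anxa5 ranged from 0.021 to 0.28 over 28 alternatives and passed in 7 of them, among them those without RED 1, RED 2, GREEN 1 or GREEN 4. Anxa5 (ENSMUSG00000027712.13) is at chromosome 3, 36448923 to 36475894.

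Anxa11, which tethers RNA granules to lysosomes, had 39.6, 41.0, 42.9, 38.5 and 34.6 CPM in CTL 1 to CTL 5 and 32.2, 33.3, 29.6, 30.5 and 29.4 CPM in RED 1 to RED 5. It was lower in all RED samples than in any CTL sample, as were 1.42% of all genes tested. The log2 fold change was -0.34 (standard error 0.09, adjusted p = 0.022). The adjusted p was above 0.05 in 7 of 28 alternatives, among them those without RED 3, without RED 5, with no filter on low counts (0.072) and with experiment 2 alone (0.23), and the value was -0.06 when libraries were scaled by their totals. Anxa11 (ENSMUSG00000021866.15) is at chromosome 14, 25842156 to 25886804, and shares exon sequence with the antisense gene Anxa11os. The labels do not state whether counting used strand, so reads of the pair cannot be told apart.

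Anxa4, Anxa6, Anxa7 and Anxa8 did not pass in this comparison. Anxa4 had 42.7, 45.9, 68.3, 64.7 and 45.7 CPM in CTL 1 to CTL 5 and 69.3, 49.6, 41.0, 37.9 and 43.4 CPM in RED 1 to RED 5, with overlapping groups and a log2 fold change of -0.12 (standard error 0.31, adjusted p = 0.85). Anxa6, an annexin of endosomes and cholesterol traffic, had 127 ± 20.9 CPM in CTL and 104 ± 15.9 in RED. Its log2 fold change was -0.28 (edgeR adjusted p = 0.19), and DESeq2 gave -0.32 with an adjusted p of 0.044. Anxa7, a protein of vesicle fusion also called synexin, had 67.4 ± 13.8 and 64.2 ± 11.1 CPM.

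**Figure D2:**
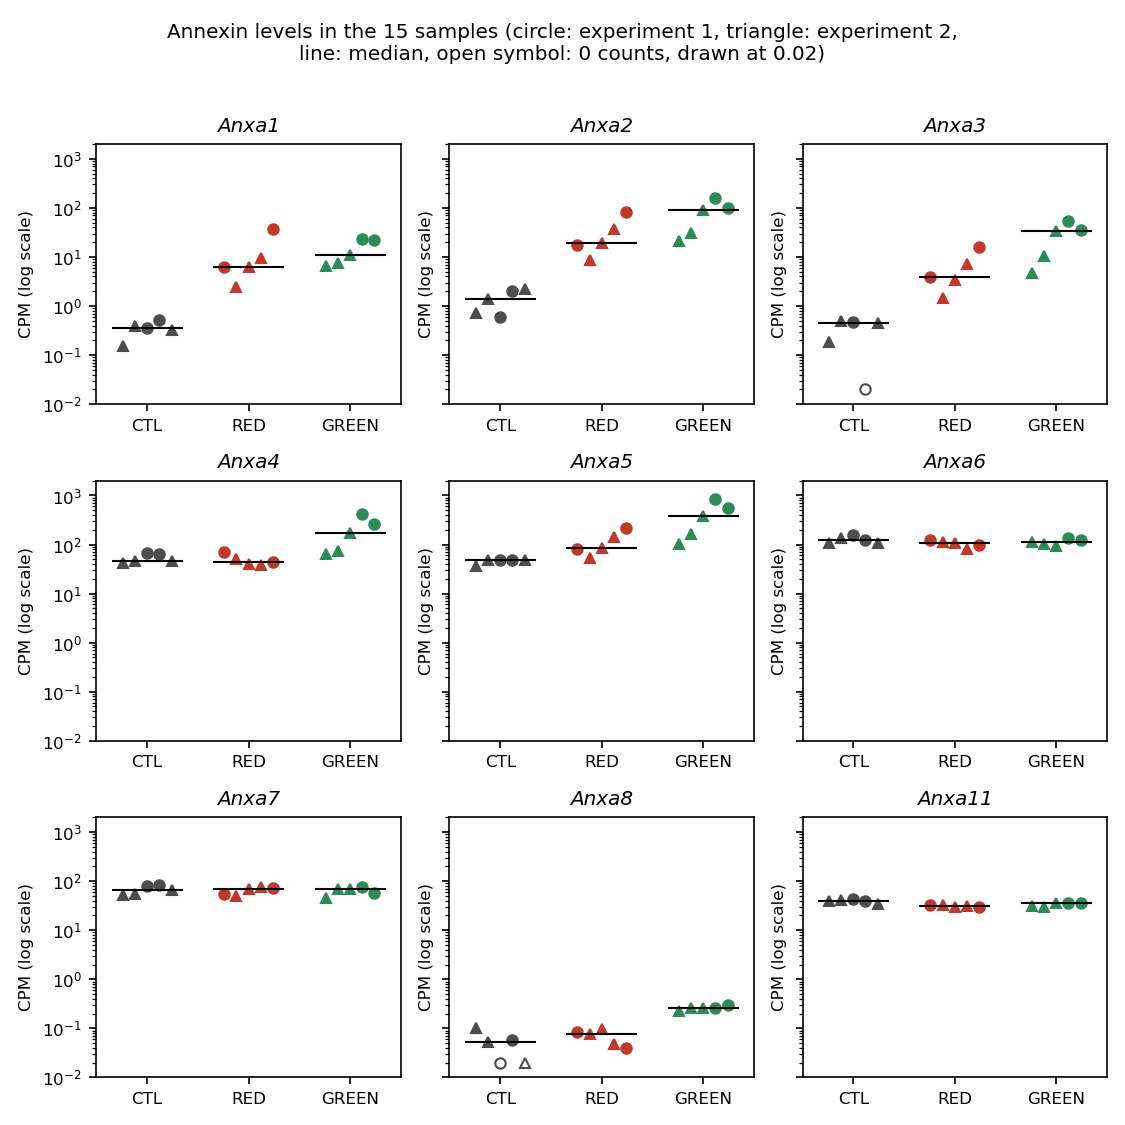
CPM of each annexin on a shared log axis in CTL, RED and GREEN samples (points: samples, circles from experiment 1 and triangles from experiment 2, line: median, open symbols: 0 counts). Anxa1, Anxa2 and Anxa3 step up from CTL to RED, and Anxa4 is above every CTL and RED sample in GREEN 2 to GREEN 5. Anxa6, Anxa7 and Anxa11 move little on this axis, with Anxa11 lower in every RED than in any CTL sample.

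GREEN versus RED asked how the labelled descendants differed from the native hepatocytes of injured liver. Of the 9 annexins, 4 were higher in GREEN (Anxa3, Anxa4, Anxa5 and Anxa8) and 5 did not pass, where 9.68% of all genes tested were higher and 3.22% lower, 12.9% in all. Anxa8 was tested only because of its GREEN counts, as given below. The median log2 fold change of the 9 was 1.27, against -0.02 over all genes. The count was 1 (Anxa4) without RED 1, GREEN 3, GREEN 4 or GREEN 5 in turn, and 2 (Anxa4 and Anxa5) without CTL 2, RED 2, RED 3 or RED 4. It was 1 (Anxa4) without both GREEN 4 and GREEN 5. With GREEN 3 left out as well no annexin passed edgeR's test, 1 having an unadjusted p under 0.05.

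Anxa4, which binds membranes of secretory epithelium, had the smallest adjusted p of the 9 annexins in this comparison. It had 63.4, 72.7, 175, 413 and 264 CPM in GREEN 1 to GREEN 5, beside the RED values given above. GREEN 1 lay below RED 1 (69.3 CPM), GREEN 2 lay just above it, and GREEN 3, GREEN 4 and GREEN 5 lay far above every CTL and RED sample. Its log2 fold change from RED was 1.83 (standard error 0.32, adjusted p = 0.0024). It was 0.72 (adjusted p = 0.10) without GREEN 3, GREEN 4 and GREEN 5. Anxa4 (ENSMUSG00000029994.17) is at chromosome 6, 86736840 to 86793584.

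The GREEN samples high in Anxa4 were those high in biliary markers, and the order of the 5 samples was the same in both (GREEN 4, GREEN 5, GREEN 3, GREEN 2, GREEN 1). Anxa1, Anxa2, Anxa3 and Anxa5 had the same order of GREEN samples. The order was not particular to the biliary list. The macrophage sum (200, 280, 560, 785 and 593 CPM in GREEN 1 to GREEN 5) had it as well. So did the neutrophil sum (8.54, 9.02, 9.95, 53.4 and 28.1 CPM). The endothelial, stellate and matrix and lymphocyte sums had other orders. Of 20 biliary markers 17 were higher in GREEN than in RED, and none of them was at 0 in every RED or every GREEN library. The part of biliary, macrophage or neutrophil cells, or of their RNA, in these annexin results was not tested. Among the genes most like Anxa4 over the 15 samples, by Pearson r of experiment-adjusted log2 CPM, were Mia (0.99) and Pold3 (0.98).

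Anxa5 had 101, 161, 389, 847 and 552 CPM in GREEN 1 to GREEN 5. GREEN 1 and GREEN 2 lay within the range of the RED samples and the other 3 lay above it. The log2 fold change from RED was 1.65 (standard error 0.43, adjusted p = 0.025), and the adjusted p rose above 0.05 without RED 1, GREEN 3, GREEN 4 or GREEN 5. Without GREEN 3, GREEN 4 and GREEN 5 together the value was 0.35. The genes most like Anxa5 were Tax1bp3, Fut4 and Lims1, each at an r of 0.99.

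Anxa3 had 4.76, 10.3, 33.7, 54.7 and 35.7 CPM in GREEN 1 to GREEN 5. GREEN 1 and GREEN 2 were again within the RED range. The log2 fold change was 2.11 (standard error 0.64, adjusted p = 0.046), close to the threshold, and 18 of 29 alternatives left it above 0.05, with a value of 0.59 when GREEN 3, GREEN 4 and GREEN 5 were left out. Tuba1a, Slc25a36 and Prx were most like Anxa3, each at an r of 0.99.

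Anxa8 was near the limit of detection, with 92 counts over all 19 libraries. In the tested libraries it had 4, 2, 0, 1 and 0 counts in CTL 1 to CTL 5, 2, 3, 4, 2 and 1 in RED 1 to RED 5, and 11, 13, 14, 13 and 13 in GREEN 1 to GREEN 5. Every GREEN sample was above every CTL and RED sample, a pattern of GREEN over RED that 6.66% of all genes tested showed (2.25% showed the reverse) and that Anxa8 alone of the 9 annexins showed. Only the GREEN counts took Anxa8 past the filter on low counts, so this separation is not independent of the filter. With no filter the edgeR adjusted p in GREEN versus RED was 0.085. Its CPM was 0.0690 ± 0.0245 in RED and 0.261 ± 0.0258 in GREEN (log2 fold change 1.88, standard error 0.55, adjusted p = 0.039), and 16 of 25 alternatives left it above 0.05. Its GREEN samples lay close together, unlike those of Anxa3, Anxa4 and Anxa5. At 11 to 14 counts each, their spread is poorly measured. Anxa8 (ENSMUSG00000021950.15) is at chromosome 14, 34085981 to 34100571. Lat2 (r of 0.94) and Mboat2 (0.93) were among the genes most like it.

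Anxa1 and Anxa2 did not pass between GREEN and RED. Anxa1 had 6.53, 7.53, 10.9, 23.5 and 22.1 CPM in GREEN 1 to GREEN 5, all within the RED range, with a log2 fold change of 0.29 (standard error 0.44, adjusted p = 0.70). The value was 0.88 without RED 5 and -0.01 without RED 1. Anxa2 had 21, 31.1, 92.3, 161 and 98.0 CPM, with a log2 fold change of 1.27 (standard error 0.57, adjusted p = 0.14). Endothelial markers (20 of 20) did not pass between GREEN and RED either. Of 20 stellate and matrix markers 5 were higher in GREEN and 15 did not pass. Of 20 macrophage markers 4 were lower in GREEN and 16 did not pass. Over all genes tested 9.68% were higher and 3.22% lower. Anxa6, Anxa7 and Anxa11 had log2 fold changes of 0.13, -0.03 and 0.13, which did not pass.

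GREEN versus CTL shares its samples with the other comparisons and sets the groups at each end side by side. Of the 9 annexins 6 were higher in GREEN (Anxa1, Anxa2, Anxa3, Anxa4, Anxa5 and Anxa8) and 3 did not pass, where 29.5% of all genes tested were higher and 18.6% lower, 48.1% in all. The median log2 fold change was 2.5, against 0.11 over all genes. Log2 fold changes were 6.10 for Anxa3 (standard error 0.81, adjusted p = 7.6e-05), 5.62 for Anxa2 (0.70, 4.7e-05) and 5.16 for Anxa1 (0.55, 1.9e-05). They were 2.92 for Anxa5 (0.46, 2.2e-04), 2.5 for Anxa8 (0.59, 0.0037) and 1.71 for Anxa4 (0.32, 7.7e-04). The GREEN and CTL samples of Anxa4 overlapped, since GREEN 1 was below CTL 3 and CTL 4. Those of Anxa1, Anxa2, Anxa3, Anxa5 and Anxa8 did not overlap, which held for 21% of all genes tested, with 9.59% not overlapping the other way. Anxa8 passed the filter on low counts through its GREEN counts alone. All 20 biliary markers were higher in GREEN than in CTL and 15 of 19 mature hepatocyte markers were lower, and Cftr of the biliary list was at 0 in every CTL library.

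Anxa6, Anxa7 and Anxa11 had log2 fold changes of -0.15, -0.08 and -0.21 between GREEN and CTL, none of which passed (adjusted p = 0.36, 0.71 and 0.075). Anxa6 had 109, 138, 157, 122 and 109 CPM in CTL 1 to CTL 5, 124, 113, 105, 81.6 and 97.9 in RED 1 to RED 5 and 114, 104, 93.8, 138 and 123 in GREEN 1 to GREEN 5. Anxa7 had 52.7, 55.7, 79.6, 83.5 and 65.7 CPM in CTL, 55.9, 49.2, 68.4, 74.3 and 73.0 in RED and 45.8, 68.2, 67.7, 76.3 and 57.7 in GREEN. Anxa11 had 31.0, 29.2, 36.4, 36.4 and 36.5 CPM in GREEN. The sign of these small differences depended on the scaling. With library totals in place of TMM the median of all genes moved to 0.33 from CTL to RED, 0.42 from RED to GREEN and 0.83 from CTL to GREEN, and Anxa6, Anxa7 and Anxa11 had 0.56, 0.66 and 0.52 in GREEN versus CTL, each below that median. By library totals 9 annexins were higher in GREEN than in CTL, 7 were higher in GREEN than in RED, and 4 were higher in RED than in CTL with Anxa11 no longer passing. Anxa6 (ENSMUSG00000018340.13) is at chromosome 11, 54979108 to 55033445, and Anxa7 (ENSMUSG00000021814.17) at chromosome 14, 20455260 to 20480133.

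**Figure D3:**
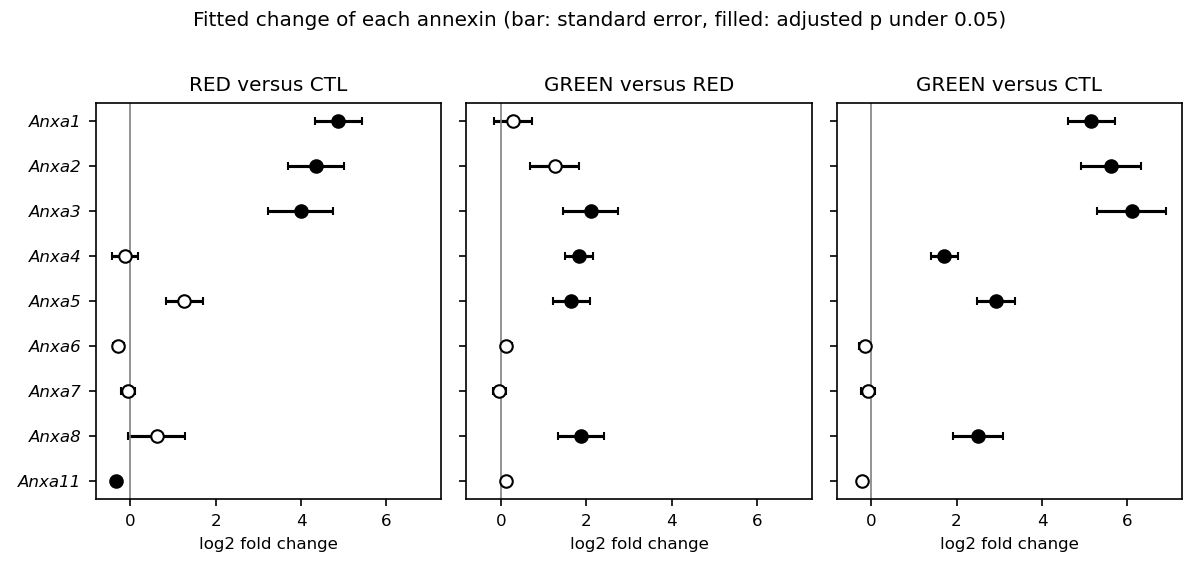
Fitted log2 fold change (horizontal axis) of each annexin (vertical axis) in the 3 comparisons, with bars of 1 standard error and filled points where the adjusted p was under 0.05. Anxa1, Anxa2 and Anxa3 lie near 4 to 5 in RED versus CTL, and Anxa3, Anxa4, Anxa5 and Anxa8 near 2 in GREEN versus RED.

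Annexin levels also differed between the library kits. In the 4 samples with a library of each kit, 7 of the 8 annexins tested were lower in experiment 2 (ribosomal RNA depletion), where 27% of the 14625 genes tested were lower. Anxa1 differed by -0.79 on the log2 scale, Anxa3 by -0.63, Anxa2 by -0.53, Anxa5 by -0.51, Anxa4 by -0.45, Anxa7 by -0.23 and Anxa6 by -0.20. Anxa11 had -0.02 (adjusted p = 0.74), and Anxa8 had too few counts to be tested. Fitted by experiment, the log2 fold change of Anxa4 from RED to GREEN was 2.59 in experiment 1 and 1.28 in experiment 2, and that of Anxa1 from CTL to RED was 5.65 and 4.37. No interaction between group and experiment passed for any annexin over 27 tests with edgeR, and 1 had an unadjusted p under 0.05 (Anxa4 in GREEN versus RED, with an adjusted p of 0.56). Over all genes 0.0061% passed that interaction test in RED versus CTL and 0% in GREEN versus RED and in GREEN versus CTL. GREEN 4 and GREEN 5, high in Anxa4 and Anxa5, were of experiment 1, while GREEN 3 was of experiment 2. In experiment 2 alone no annexin passed in GREEN versus RED, 4 having an unadjusted p under 0.05, and in experiment 1 alone 3 passed (Anxa3, Anxa4 and Anxa5).

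Partners and effectors of annexins were followed through a list of 22 genes, of which 21 were tested. In RED versus CTL 11 were higher and 10 did not pass, with a median log2 fold change of 2.72, where 14.2% of all genes tested were higher and 1.99% lower, with a median of 0.05. In GREEN versus RED 5 were higher and 1 lower, with a median of 0.22, beside 9.68% and 3.22% of all genes and a median of -0.02. In GREEN versus CTL 11 were higher and 3 lower, with a median of 1.96, beside 29.5% and 18.6% of all genes and a median of 0.11. The 5 higher in GREEN than in RED were S100a11, S100a6, Ahnak, Plat and Plaur, and the lower gene was Lamp1, a lysosomal membrane protein.

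S100a10, the S100 protein that joins Anxa2 into a complex at the plasma membrane, did not pass in any comparison. It had 71.7, 69.7, 72.3, 95.8 and 125 CPM in CTL 1 to CTL 5, 65.9, 34.7, 54.9, 123 and 128 in RED 1 to RED 5, and 33.1, 52.4, 90.8, 90.2 and 57.1 in GREEN 1 to GREEN 5. The groups overlapped, and the log2 fold changes were -0.12 from CTL to RED, -0.32 from RED to GREEN and -0.44 from CTL to GREEN (adjusted p = 0.88, 0.57 and 0.33). Per kilobase of exon, Anxa2 was 0.00265 to 0.00696 of the level of S100a10 in CTL, 0.0810 to 0.208 of it in RED and 0.193 to 0.581 of it in GREEN. S100a10 RNA was thus above Anxa2 RNA per exon length in all 15 samples, by a margin that was smaller in the injury groups.

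S100a11, which binds Anxa1, had 0.572, 0.810, 0.905, 4.33 and 2.89 CPM in CTL 1 to CTL 5, 8.83, 5.37, 6.30, 12.1 and 36.7 in RED 1 to RED 5 and 10.4, 18.0, 56.7, 160.0 and 121 in GREEN 1 to GREEN 5. It rose by 2.72 on the log2 scale in RED versus CTL (standard error 0.64, adjusted p = 0.0087) and by a further 2.19 in GREEN versus RED (0.61, 0.034). S100a6, which binds Anxa2 and Anxa11, had 2 counts over the 5 CTL samples. It had 0.339, 0.467, 0.695, 0.884 and 1.98 CPM in RED and 2.52, 5.80, 25.8, 20.6 and 22.1 in GREEN, with every GREEN sample above every RED sample (log2 fold change 4.11, standard error 0.65, adjusted p = 0.0013). Ahnak, a giant scaffold protein that binds Anxa2 with S100a10, had 9.73 ± 6.23 CPM in CTL, 64.4 ± 51.4 in RED and 205 ± 148 in GREEN, with log2 fold changes of 2.73 (adjusted p = 8.1e-04) and 1.79 (0.016) at the 2 steps.

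**Figure D4:**
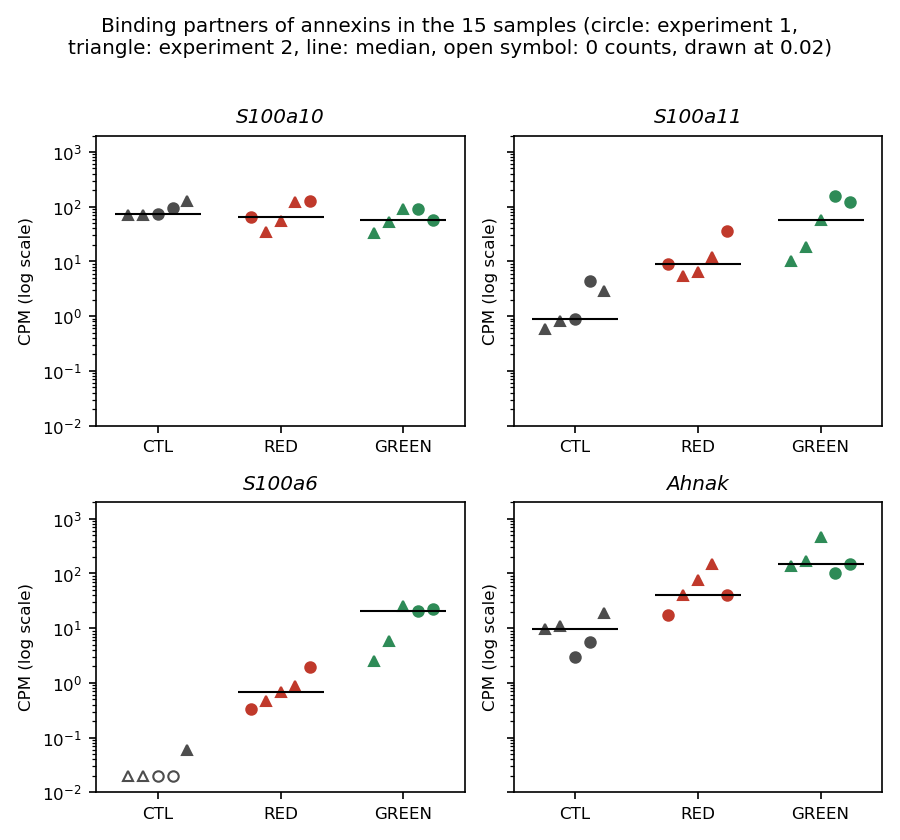
CPM of 4 binding partners of annexins on a shared log axis in CTL, RED and GREEN samples (points: samples, circles from experiment 1 and triangles from experiment 2, line: median, open symbols: 0 counts). S100a10 stays between 33.1 and 128 CPM in all groups while S100a11, S100a6 and Ahnak are higher in RED and GREEN.

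Among genes of membrane repair, Dysf, which works with Anxa1 and Anxa2 at membrane wounds, had 1.30 ± 0.899 CPM in CTL, 18.4 ± 13.2 in RED and 12.5 ± 4.52 in GREEN. It rose in RED versus CTL (log2 fold change 3.83, adjusted p = 6.2e-04) and had -0.56 in GREEN versus RED, which did not pass. Capn1, Capn2, Chmp4b and Trim72 of the same list did not pass in any comparison. Their log2 fold changes in RED versus CTL were 0.02, 0.13, 0.22 and -1.21 (adjusted p = 0.97, 0.68, 0.59 and 0.37). Pdcd6, a calcium-binding partner of Anxa7 and Anxa11, had 47.1 ± 7.75, 41.4 ± 13.1 and 35.7 ± 4.81 CPM and was lower in GREEN than in CTL (-0.40, adjusted p = 0.015).

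In the plasminogen system, whose parts meet on Anxa2 at the cell surface, the activators and their receptor rose in RED versus CTL and plasminogen itself was lower in GREEN than in CTL. Plat, the tissue activator, had 0.406 ± 0.287 CPM in CTL, 4.61 ± 3.49 in RED and 18.8 ± 11.7 in GREEN, with log2 fold changes of 3.25 (adjusted p = 0.0024) and 1.96 (0.038). Plaur, the urokinase receptor, had 0.130 ± 0.0490, 1.84 ± 1.26 and 12.0 ± 7.58 CPM, with 3.68 (0.0012) and 2.60 (0.0074). Plau, urokinase, rose by 2.85 in RED versus CTL (0.011) and had 0.51 in GREEN versus RED, which did not pass. Plg, the plasminogen made by hepatocytes, had 4443 ± 370.3 CPM in CTL, 2986 ± 777 in RED and 1700.2 ± 967 in GREEN and was lower in GREEN than in CTL (-1.45, adjusted p = 0.0050).

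The formyl peptide receptors through which Anxa1 acts had their highest mean in RED. Fpr1 had 0.302 ± 0.135 CPM in CTL, 4.10 ± 2.95 in RED and 1.33 ± 0.796 in GREEN, and rose in RED versus CTL (log2 fold change 3.56, adjusted p = 0.0016). Fpr2 had 0.102 ± 0.0868, 1.16 ± 0.813 and 0.420 ± 0.268 CPM and rose by 3.42 (0.0065). Between GREEN and RED they had -1.60 and -1.46, which did not pass (0.080 and 0.15). Both are receptors of myeloid cells, and macrophage markers moved alongside as given above. The part of such cells was not tested. Fpr3 was at 0 counts in all tested libraries.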

How the data were processed

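Levels rest on the authors' deposited estimated counts per gene, which are not normalized. They came from kallisto 0.43.1 and build GRCm38, per the submitters' processing notes. The annotation release, the RNA extraction and the use of strand are not given in any source used here. kallisto divides reads among similar sequences, and estimated counts of Anxa4, Anxa7, Anxa11 and Anxa3 were not whole (tolerance 0.05) in 18, 13, 9 and 8 of 19 libraries. Exons of Anxa2, Anxa3, Anxa4 and Anxa11 overlap other annotated genes. Symbols, positions and exon lengths came from GENCODE M21, which held 98.8% of the identifiers.

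Counts were rounded, filtered with filterByExpr and scaled by TMM. A model with group and experiment was fitted over 15 libraries, the experiment 2 library where a sample had 2. It was tested with the quasi-likelihood test of edgeR 4.0.16 (R 4.3.3) with Benjamini-Hochberg adjustment over 16387 genes, at 0.05. Adjusted p-values without another tool's name are from this test, which was also tested on simulated data. Kits were compared with sample as a block. P-values reflect variation among samples that the labels call biological replicates. Alternatives were DESeq2 1.42.0, limma-voom (limma 3.58.1), other scalings, no filter, replicate blocks, single experiments, no experiment term and left-out samples. All 10 annexins, direct partners, and the 3 genes most alike to the 4 annexins that passed in GREEN versus RED were named, and a few genes under these rules are not reported here. Members and lists were chosen with earlier results of these data known.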

Additional observations from a re-analysis of the deposited data

Results flagged for a closer look

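Each annexin was checked for a sample far from the rest of its group, in 27 groups of 5 samples. The gap to the nearest sample exceeded 0.71 of the group's range in 2 of them, and chance gives about 1 group in 20. Anxa1 had 36.96 CPM in RED 5, where the nearest RED sample had 9.579. RED 5 also had the highest summed endothelial (3303 CPM), stellate and matrix (2511 CPM) and macrophage (1946 CPM) markers of the RED samples. Anxa5 had 36.35 CPM in CTL 1, where the nearest CTL sample had 47.42.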

How the results depend on the processing

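The 9 annexins were followed in 3 comparisons under up to 29 alternatives. The calls of Anxa1 and Anxa2 in RED versus CTL and of Anxa1, Anxa2, Anxa3 and Anxa5 in GREEN versus CTL held under all 28 that applied. Annexins past the threshold in GREEN versus RED (4) numbered 7 by library totals, 2 with no experiment term, 1 when GREEN 4 and GREEN 5 were left out, 1 without CTL in the fit, 0 when GREEN 3, GREEN 4 and GREEN 5 were left out (edgeR, 1 with an unadjusted p under 0.05) and 0 in experiment 2 alone (4 unadjusted). No other tool was run in those last 2 settings, and limma-voom gave 3 and DESeq2 4 over all samples. Leaving out 1 sample at a time gave 1 to 4. Annexins past the threshold in RED versus CTL (4) numbered 2 in experiment 2 alone and 3 to 5 with 1 sample left out. They numbered 6 with DESeq2, and 6 in edgeR without GREEN 3, GREEN 4 and GREEN 5, each with Anxa5 higher and Anxa6 lower as well. Those in GREEN versus CTL (6) numbered 5 to 7 with 1 sample left out, 7 with DESeq2 and 9 by library totals.

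All genes past the threshold in GREEN versus RED (2114) numbered 3822 with DESeq2, 4329 by library totals (4289 higher and 40 lower, against 1586 and 528 by TMM), 4141 with the experiment 1 library where a sample had 2, 5351 by experiment 1 and 77 by experiment 2 alone, 268 without GREEN 4 and GREEN 5, 52 with GREEN 3 left out too and 1283 without CTL in the fit. With 1 sample left out they numbered 866 to 3515. In RED versus CTL (2652) they numbered 1207 in experiment 2 alone and 2131 to 3267 with 1 sample left out. In GREEN versus CTL (7890) they numbered 3481 in experiment 2 alone, 4481 without GREEN 4 and GREEN 5, 2176 with GREEN 3 left out too and 6710 to 8446 with 1 sample left out. By library totals 10077 genes were higher and 467 lower in GREEN versus CTL (4839 and 3051 by TMM), and 2812 and 95 in RED versus CTL (2326 and 326).

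The labels do not state whether RED and GREEN samples with the same library code number came from 1 animal, and not every such pair deviated together. The deviations correlated at 0.58 for RED 2 with GREEN 1, at 0.40 for RED 3 with GREEN 2, at 0.78 for RED 4 with GREEN 3, at 0.44 for RED 4 with GREEN 4, at 0.40 for GREEN 3 with GREEN 4 and at -0.22 for RED 5 with GREEN 5. Of the 4 pairs used as blocks, 3 of 4 RED and 1 of 4 GREEN samples correlated best with their own number. A replicate block of these numbers gave 3 annexins and 1494 genes for RED versus CTL, 3 and 2006 for GREEN versus RED, and 5 and 4793 for GREEN versus CTL. A block of the title numbers, whose pairs ranged from -0.22 to 0.58, gave 3, 3 and 6 annexins. Under both blocks Anxa11 no longer passed in RED versus CTL (adjusted p = 0.32 by code and 0.061 by title) and Anxa8 in GREEN versus RED (0.060 and 0.072), and under the code block Anxa8 did not pass in GREEN versus CTL (0.075). No other annexin call changed.

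Signs that turned were of log2 fold changes that had not passed. In RED versus CTL, Anxa4 had 0.15 by library totals, 0.55 with the code block and -0.247 to 0.0272 with 1 sample left out (above 0 without RED 5). Anxa7 had 0.26 by library totals, 0.14 in experiment 2 alone and -0.198 to 0.0109 with 1 sample left out (above 0 without RED 2). In GREEN versus RED, Anxa7 had 0.40 by library totals, 0.0073 without GREEN 4 and GREEN 5 and -0.176 to 0.0531 with 1 sample left out (above 0 without RED 3, GREEN 1 or GREEN 5). Anxa1 had -0.0173 and Anxa11 -0.0193 when GREEN 3, GREEN 4 and GREEN 5 were left out, and Anxa1 had -0.0139 (without RED 1) to 0.885 with 1 sample left out. In GREEN versus CTL, library totals gave 0.56 for Anxa6, 0.66 for Anxa7 and 0.52 for Anxa11. Anxa7 had 0.0593 in experiment 2 alone and -0.271 to 0.0078 with 1 sample left out (above 0 without GREEN 5). The cause was not tested. Anxa8, at 0 to 14 counts per library, is limited by depth.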

Other observations

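Another 2 annexin genes of the tables were looked up after their values were seen. Anxa9 (ENSMUSG00000015702.13, chromosome 3, 95296096 to 95307176 on GRCm38) had 0.915 ± 0.310 CPM in CTL, 1.53 ± 0.502 in RED, and 1.86, 2.59, 12.1, 12.9 and 8.30 in GREEN 1 to GREEN 5. GREEN 1 was within the RED range and GREEN 2 to GREEN 5 were above every RED sample. The log2 fold change was 0.74 in RED versus CTL (edgeR adjusted p = 0.41), 2.28 in GREEN versus RED (standard error 0.53, adjusted p = 0.015) and 3.02 in GREEN versus CTL (6.6e-04). Anxa10 (ENSMUSG00000031635.14) was too low to be tested. It had 0 counts in every tested CTL and RED library and 1, 0, 5, 19 and 8 counts in GREEN 1 to GREEN 5. GREEN 3, GREEN 4 and GREEN 5 had the most, as they did for Anxa1, Anxa2, Anxa3, Anxa4 and Anxa5.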
